A study of Mus musculus with 9 samples.

Results

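Interferon-stimulated genes are the genes whose transcription rises when a cell senses interferon. A list of 42 of them, given by gene symbol, was described in naive CD4+ T cells of mouse spleen. All 42 were found among the 55487 gene IDs of the deposited tables, and all 42 were among the 13374 genes expressed highly enough to be tested. The series addresses what blocking interleukin-1 beta (IL-1b) does to naive T cells, by 2 routes. The cells were naive CD4+ T cells, the resting helper T cells before their first contact with antigen, taken from spleens of C57BL6/J wild-type animals, and their poly(A) RNA was sequenced. There were 3 groups of 3 libraries. In the anti-IL-1b group the mice received a neutralizing antibody to IL-1b on 10 consecutive days. In the MCC950 group they received MCC950, a small-molecule inhibitor of the NLRP3 inflammasome, which is the complex that drives the maturation of IL-1b, also for 10 days. The untreated group received no treatment, and the labels name no mice given a vehicle or a control antibody. The labels give no age, sex or sorting gate, and leave unsaid whether each library is a different mouse, so the p-values below measure the spread between libraries only.

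Type I interferons bind the receptor made of IFNAR1 and IFNAR2, which activates the kinases JAK1 and TYK2. These phosphorylate STAT proteins, STAT2 among them, which act with IRF9 at the interferon-stimulated response element of promoters. The induced proteins sense viral nucleic acid, block translation or viral entry, degrade RNA, or feed back on the pathway. Resting T cells are known to keep a low level of many of these transcripts, which reflects weak tonic interferon signalling.

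The anti-IL-1b libraries held 14775375 to 16676626 expected counts each, the MCC950 libraries 16769960 to 18497827 and the untreated libraries 17335367 to 21394797. A gene's level is given as CPM, its count relative to the library total after TMM scaling, which is edgeR's way of aligning the bulk of genes between libraries. The 12 T cell identity genes, Cd4 and Cd3e among them, were abundant in every library and summed to 7921 to 7979 CPM in anti-IL-1b libraries, 7512 to 7548 CPM in MCC950 libraries and 8006 to 8109 CPM in untreated libraries. Genes of activated and memory T cells, 12 in all, summed to 165 to 170 CPM with anti-IL-1b, 151 to 155 CPM with MCC950 and 529 to 558 CPM untreated. Most of that gap is Cd69, which averaged 64.0 CPM with anti-IL-1b, 56.0 CPM with MCC950 and 395 CPM untreated: 3 of the 12 genes rose and 3 fell with anti-IL-1b, 3 rose and 4 fell with MCC950, and their median log2 fold change was 0.12 with anti-IL-1b and 0.06 with MCC950. Over all tested genes, 15.4% rose and 18.5% fell with anti-IL-1b, and 17.7% rose and 19.1% fell with MCC950. These shares stand beside each count of marker genes given here. Summed markers of other cells were low but higher in both treated groups, though not every gene of each list rose. The 18 B cell markers summed to 506 to 525 CPM with anti-IL-1b, 494 to 520 CPM with MCC950 and 326 to 347 CPM untreated, and 17 of the 18 rose with each agent, with a median log2 fold change of 2.29 with anti-IL-1b and 2.5 with MCC950. The 16 neutrophil markers summed to 41.4 to 42.8 CPM with anti-IL-1b, 19.9 to 23.0 CPM with MCC950 and 1.10 to 1.34 CPM untreated, where 11 of them, Ly6g and S100a8 included, had no count in any library. The 18 monocyte, macrophage and dendritic cell markers summed to 24.6 to 29.2 CPM with anti-IL-1b, 25.8 to 29.8 CPM with MCC950 and 10.2 to 12.5 CPM untreated. Of the 10 that were tested, 6 rose and 1 fell with anti-IL-1b, and 6 rose and 0 fell with MCC950. The 12 cytotoxic and NK cell genes summed to 98.2 to 108 CPM with anti-IL-1b, 102 to 107 CPM with MCC950 and 68.0 to 75.5 CPM untreated. Of the 9 that were tested, 4 rose and 1 fell with anti-IL-1b, and 3 rose and 0 fell with MCC950. Heat-shock and immediate early genes, which respond to the handling of cells, moved the other way: 22 of 22 fell with either agent, and their sum was 8292 to 8481 CPM with anti-IL-1b, 9754 to 9897 CPM with MCC950 and 32701 to 33110 CPM untreated. Every difference from untreated cells reported here goes with these shifts, and their part in it was not tested. In RNA of a whole cell sample, fewer cells of a type and less RNA per cell cannot be told apart.

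Levels between genes were compared in TPM, which relates transcripts to their length. Averaged over the 9 libraries, 7 members stood at 100 TPM or more, 27 between 10 and 100 TPM, and 8 under 10 TPM. Ly6e, which encodes a lipid-anchored surface protein that restricts viral entry, was the highest, at 1088 TPM with anti-IL-1b, 1193 TPM with MCC950 and 993 TPM untreated. Sp100, a component of nuclear bodies, followed at 603 TPM with anti-IL-1b, 533 TPM with MCC950 and 533 TPM untreated. At the low end stood Mx1, a GTPase that traps viral nucleocapsids, at 2.44 TPM with anti-IL-1b, 1.69 TPM with MCC950 and 2.22 TPM untreated, and Ifi44 at 0.917 TPM with anti-IL-1b, 0.793 TPM with MCC950 and 1.04 TPM untreated. Mx1, Rsad2 and Ifi44 were scarce in all 3 groups. Other antiviral effectors ranged widely over the 9 libraries, with Ifitm3 at 2.17 TPM and Cmpk2 at 6.82 TPM, but Samd9l at 68.2 TPM and Bst2 at 74.5 TPM. The abundant members were Ly6e, Sp100, Slfn2, Ifi27l2a, Slfn1, Ly6a and Adar, the last also an antiviral effector.

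Most of the members that differed from untreated cells were higher, by modest amounts. With anti-IL-1b 18 of the 42 rose, 2 fell and 22 did not pass the threshold of an adjusted p of 0.05 (edgeR's quasi-likelihood test, Benjamini-Hochberg adjustment over all tested genes). Of all tested genes, 15.4% rose and 18.5% fell in that comparison, 34.0% in either direction. With MCC950 23 members rose (22 without Ifitm3, which entered the test only through the treated groups), 2 fell and 17 did not pass, where 17.7% of all tested genes rose and 19.1% fell, 36.8% in either direction. The median log2 fold change of the members was 0.18 with anti-IL-1b and 0.20 with MCC950, beside medians over all tested genes of 0.00 and 0.01. All 3 treated libraries lay above all 3 untreated ones for 20 members with anti-IL-1b, where 20.4% of all genes did so, and for 23 members with MCC950, where 23.5% of all genes did. They lay below for 3 members with anti-IL-1b, where 22.8% of all genes did, and for 2 with MCC950, where 23.8% did. Both comparisons use the same untreated libraries. The members were chosen with earlier results of these data known, so the counts describe this list and test nothing.

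Few member calls reached a fold of 1.5: 2 of the 20 with anti-IL-1b and 5 of the 25 with MCC950. Ifitm3, which entered the test only through the treated groups, is among those 5. The share of all genes past that fold was not counted, so these counts have no share beside them. Scaling by library totals in place of TMM shifted the median of all tested genes to 0.13 with anti-IL-1b and 0.12 with MCC950 and that of the members to 0.31 and 0.32. With that scaling 30 and 34 members were higher and 0 lower, where 29.4% and 30.0% of all genes were higher and 10.0% and 11.9% lower. The changes below are therefore read relative to the bulk of genes, as TMM does.

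**Figure D1:**
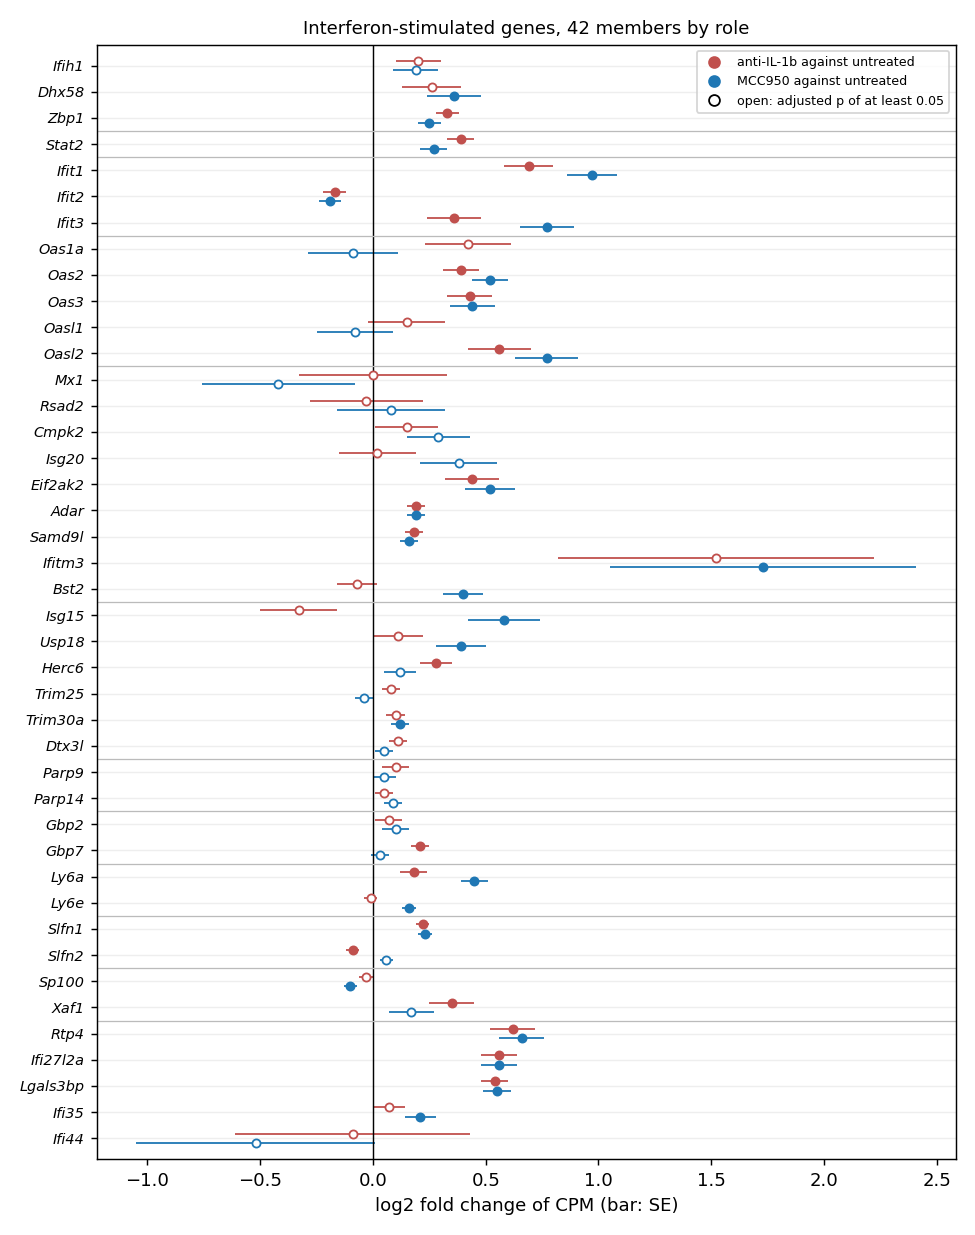
Log2 fold change of CPM for each of the 42 members (rows, grouped by role, grey lines between groups) for anti-IL-1b against untreated (red) and MCC950 against untreated (blue), with standard errors as bars; filled points passed the threshold. Filled points lie mostly right of 0, with Ifit2 left of it for both agents; Slfn2 with anti-IL-1b and Sp100 with MCC950 also lie left of 0, and both take the other sign when libraries are scaled by their totals.

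The members that passed as higher in each comparison with untreated cells were Zbp1, Stat2, Ifit1, Ifit3, Oas2, Oas3, Oasl2, Eif2ak2, Adar, Samd9l, Ly6a, Slfn1, Rtp4, Ifi27l2a and Lgals3bp, and Ifit2 passed as lower in each. Because the comparisons share the untreated libraries, nothing is read from this overlap. Herc6, Gbp7 and Xaf1 passed as higher with anti-IL-1b alone, and Dhx58, Ifitm3, Bst2, Isg15, Usp18, Trim30a, Ly6e and Ifi35 with MCC950 alone. Slfn2 passed as lower with anti-IL-1b alone and Sp100 with MCC950 alone. Of the 11 that were higher with a single agent, the direct comparison of the agents passed for Gbp7, Bst2, Isg15 and Ly6e, so that for the other 7 a difference between the agents was not shown. The remaining 13 passed in neither comparison, among them Parp14, Mx1, Rsad2 and Ifi44.

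The promoters of 9 members are shown because their window holds the letters of a core of the interferon-stimulated response element, or lacks them although the gene changed. Sequences are from RefSeq (GRCm38.p6), 250 bases before to 50 after the annotated start, read along the gene's own strand. The core searched was GAAA, any 2 bases, GAAA, on both strands (TTTC, any 2 bases, TTTC on the other), overlapping matches included, and each match is in capitals. Ifit1 (chr19:34640639-34640938, plus strand) held 2 matches, 104 and 85 bases before the start. Ifit3 (chr19:34583279-34583578, plus strand) held the same 2 words, 156 and 122 bases before its start. In Stat2 (chr10:128270248-128270547, plus strand) the single match lay 222 bases before the start, in Gbp7 (chr3:142530086-142530385, plus strand) 53 bases before it, and in Eif2ak2 (chr17:78882523-78882822, minus strand) 18 bases after it. Isg15 (chr4:156200769-156201068, minus strand) held 3 matches that overlap one another, 78, 72 and 66 bases before the start. Lgals3bp (chr11:118401910-118402209, minus strand), Slfn1 (chr11:83116570-83116869, plus strand) and Ifit2 (chr19:34550444-34550743, plus strand, the first of its 2 windows) held none.
Ifit1: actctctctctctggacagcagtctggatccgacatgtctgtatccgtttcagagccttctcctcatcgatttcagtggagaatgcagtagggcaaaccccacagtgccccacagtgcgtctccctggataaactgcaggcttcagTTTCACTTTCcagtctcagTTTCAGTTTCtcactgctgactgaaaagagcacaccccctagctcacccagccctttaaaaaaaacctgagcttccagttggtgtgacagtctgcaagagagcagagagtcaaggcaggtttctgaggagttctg
Ifit3: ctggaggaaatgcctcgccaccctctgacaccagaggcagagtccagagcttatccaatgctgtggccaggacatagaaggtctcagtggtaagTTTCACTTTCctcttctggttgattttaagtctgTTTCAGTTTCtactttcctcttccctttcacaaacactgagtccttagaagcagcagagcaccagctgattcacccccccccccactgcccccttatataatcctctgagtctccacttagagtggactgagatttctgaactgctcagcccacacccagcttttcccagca
Stat2: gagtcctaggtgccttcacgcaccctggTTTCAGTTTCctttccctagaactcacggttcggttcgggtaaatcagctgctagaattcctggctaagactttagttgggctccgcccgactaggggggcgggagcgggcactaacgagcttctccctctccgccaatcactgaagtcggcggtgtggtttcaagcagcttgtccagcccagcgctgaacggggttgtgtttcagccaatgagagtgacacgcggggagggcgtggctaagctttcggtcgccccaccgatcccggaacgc
Gbp7: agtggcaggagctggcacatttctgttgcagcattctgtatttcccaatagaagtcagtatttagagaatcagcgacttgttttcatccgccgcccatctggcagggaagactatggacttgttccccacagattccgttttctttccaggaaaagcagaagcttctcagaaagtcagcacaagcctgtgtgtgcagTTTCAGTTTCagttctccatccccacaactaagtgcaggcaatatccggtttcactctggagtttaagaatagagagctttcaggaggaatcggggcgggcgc
Eif2ak2: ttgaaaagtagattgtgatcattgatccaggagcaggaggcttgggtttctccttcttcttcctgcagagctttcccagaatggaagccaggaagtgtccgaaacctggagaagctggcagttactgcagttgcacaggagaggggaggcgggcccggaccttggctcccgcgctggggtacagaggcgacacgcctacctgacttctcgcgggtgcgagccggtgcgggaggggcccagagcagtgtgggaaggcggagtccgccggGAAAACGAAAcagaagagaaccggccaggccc
Isg15: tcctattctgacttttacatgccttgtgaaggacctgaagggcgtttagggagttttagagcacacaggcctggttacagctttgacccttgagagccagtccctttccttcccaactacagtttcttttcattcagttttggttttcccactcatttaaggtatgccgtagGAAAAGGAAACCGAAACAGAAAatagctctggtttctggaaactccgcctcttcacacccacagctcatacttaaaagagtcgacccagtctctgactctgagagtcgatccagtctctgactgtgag
Lgals3bp: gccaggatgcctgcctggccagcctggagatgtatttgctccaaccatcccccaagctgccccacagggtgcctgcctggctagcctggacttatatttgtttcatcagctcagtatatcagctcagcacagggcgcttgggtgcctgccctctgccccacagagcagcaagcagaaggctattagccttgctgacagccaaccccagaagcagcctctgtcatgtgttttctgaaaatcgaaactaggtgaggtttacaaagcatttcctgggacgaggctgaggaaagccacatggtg
Slfn1: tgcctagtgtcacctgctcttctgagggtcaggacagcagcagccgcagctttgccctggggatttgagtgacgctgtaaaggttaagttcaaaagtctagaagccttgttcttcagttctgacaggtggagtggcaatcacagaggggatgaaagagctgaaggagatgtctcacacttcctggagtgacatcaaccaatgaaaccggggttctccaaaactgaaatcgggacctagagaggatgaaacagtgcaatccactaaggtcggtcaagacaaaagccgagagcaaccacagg
Ifit2: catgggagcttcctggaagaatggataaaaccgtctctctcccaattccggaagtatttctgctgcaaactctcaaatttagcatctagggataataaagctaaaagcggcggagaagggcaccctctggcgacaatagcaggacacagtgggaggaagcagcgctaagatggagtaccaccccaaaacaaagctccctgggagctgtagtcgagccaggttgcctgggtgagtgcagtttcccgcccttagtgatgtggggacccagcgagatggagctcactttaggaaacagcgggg

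Of the 31 members with a promoter in the RefSeq table, 14 held the core, which is 45.2%, beside 3.99% of all 27025 genes in the table (1079 genes) and 3.44% of all 32851 windows. Among the members that rose with at least 1 agent and had a window, 10 of 18 held it (55.6%), and among those that passed with neither agent 4 of 10. Members with the core were thus found on both sides of the threshold. A match of letters is not a measured site of binding, and its absence says only that these letters are not in this window.

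**Figure D2:**
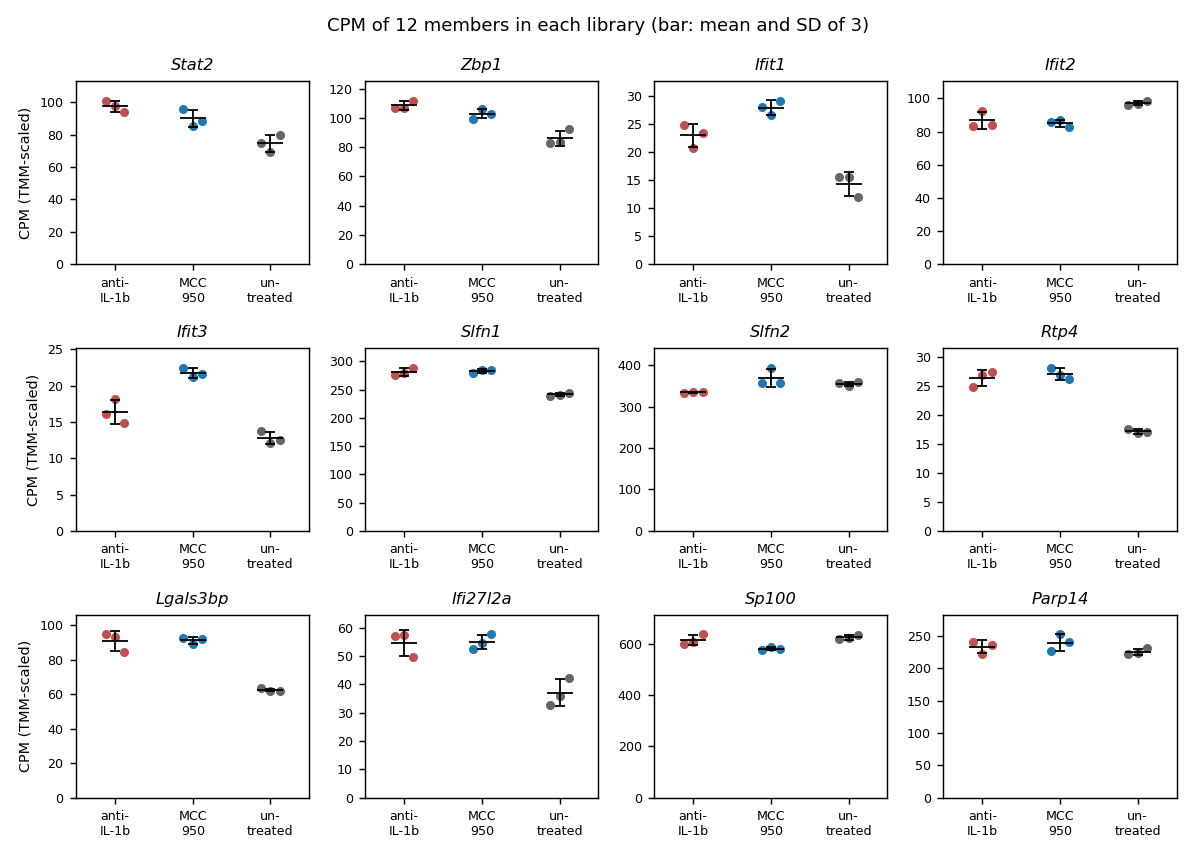
TMM-scaled CPM (vertical axes, from 0) of 12 members in each library, for anti-IL-1b (red), MCC950 (blue) and untreated (grey); bars are the mean and SD of 3 libraries. For Stat2, Zbp1, Ifit1, Ifit3, Slfn1, Rtp4, Lgals3bp and Ifi27l2a all 6 treated libraries stand above the 3 untreated ones, and for Ifit2 they stand below.

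Among the sensors and signal carriers, Stat2 and Zbp1 rose with both agents. Stat2, a transcription factor activated by the type I interferon receptor, had 101, 97.7 and 94.0 CPM with anti-IL-1b, 95.8, 85.6 and 88.6 CPM with MCC950, and 75.1, 69.3 and 79.5 CPM untreated. Every treated library exceeded every untreated one. Its log2 fold change was 0.39 ± 0.06 (SE) with anti-IL-1b (adjusted p = 9.10e-07, edgeR's quasi-likelihood test) and 0.27 ± 0.06 with MCC950 (adjusted p = 2.34e-04). Zbp1, a sensor of left-handed nucleic acid that can trigger necroptosis, had 107, 107 and 112 CPM with anti-IL-1b, 99.7, 106 and 103 CPM with MCC950, and 83.1, 83.5 and 92.3 CPM untreated. The 3 groups did not overlap, with anti-IL-1b on top, but the direct comparison of the agents did not pass (0.08 ± 0.05, adjusted p = 0.380, edgeR). Against untreated cells Zbp1 rose by 0.33 ± 0.05 with anti-IL-1b and 0.25 ± 0.05 with MCC950 on the log2 scale (adjusted p = 2.21e-06 and 1.21e-04, edgeR). Of the 2 RNA helicases of the RIG-I family on the list, Ifih1, which encodes MDA5, did not pass with anti-IL-1b (0.20 ± 0.10) or MCC950 (0.19 ± 0.10), and Dhx58, which encodes LGP2, passed with MCC950 (0.36 ± 0.12, adjusted p = 0.0216, edgeR) and not with anti-IL-1b (0.26 ± 0.13). The Dhx58 call was lost without untreated replicate 1 or MCC950 replicate 1 or 2 and in limma-trend on TPM, with an adjusted p of up to 0.186 over all settings.

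The IFIT proteins, which bind viral RNA and hold up its translation, did not move as one. Ifit1 had the largest fold change among members above 10 CPM. It had 24.9, 20.8 and 23.4 CPM with anti-IL-1b, 28.0, 26.6 and 29.2 CPM with MCC950, and 15.5, 15.5 and 11.9 CPM untreated. All libraries were ordered by group, MCC950 highest and untreated lowest. The fold was 1.61 with anti-IL-1b (log2 0.69 ± 0.11, adjusted p = 5.77e-06, edgeR) and 1.96 with MCC950 (log2 0.97 ± 0.11, adjusted p = 4.05e-09), and the direct difference of -0.28 ± 0.11 missed the threshold (adjusted p = 0.0924). Ifit3 followed the same order, at 16.1, 18.1 and 14.9 CPM with anti-IL-1b, 22.5, 21.2 and 21.6 CPM with MCC950, and 13.8, 12.1 and 12.5 CPM untreated. Here, too, no 2 groups overlapped. It rose by 0.36 ± 0.12 with anti-IL-1b and 0.77 ± 0.12 with MCC950 on the log2 scale (adjusted p = 0.0195 and 1.59e-06, edgeR), and the anti-IL-1b call was lost without 1 library in 3 cases (untreated replicate 2 or 3, or anti-IL-1b replicate 2), with an adjusted p of up to 0.118.

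Ifit2, their neighbour on chromosome 19, went the other way. It had 83.5, 92.4 and 84.2 CPM with anti-IL-1b, 85.6, 86.7 and 82.6 CPM with MCC950, and 96.2, 96.7 and 98.7 CPM untreated. Every treated library was below every untreated one. It fell by 0.17 ± 0.05 with anti-IL-1b and by 0.19 ± 0.05 with MCC950 on the log2 scale (adjusted p = 0.0131 and 0.00316, edgeR). The anti-IL-1b call was also lost without anti-IL-1b replicate 1 or 3 and under upper-quartile scaling, both calls were lost under library totals and under TPM, and the values nearest 0 in any setting were -0.04 with anti-IL-1b and -0.08 with MCC950. On the TPM scale Ifit2 was the most abundant of the 3, at 36.8 TPM with anti-IL-1b, 34.4 TPM with MCC950 and 37.7 TPM untreated, beside 14.2 TPM with anti-IL-1b, 16.5 TPM with MCC950 and 7.87 TPM untreated for Ifit1.

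The 2'-5'-oligoadenylate synthetases make the second messenger that switches on RNase L, and 3 of the 5 members of the family rose with each agent. Of all tested genes, 15.4% rose with anti-IL-1b and 17.7% with MCC950. Oas2 rose by 0.39 ± 0.08 with anti-IL-1b and 0.52 ± 0.08 with MCC950 on the log2 scale, Oas3 by 0.43 ± 0.10 with anti-IL-1b and 0.44 ± 0.10 with MCC950, and Oasl2, a relative with ubiquitin-like domains, by 0.56 ± 0.14 with anti-IL-1b and 0.77 ± 0.14 with MCC950. Their adjusted p ran from 9.59e-07 to 0.00141 (edgeR). Oas1a had 10.6, 7.80 and 6.96 CPM with anti-IL-1b, 4.73, 6.97 and 6.15 CPM with MCC950, and 6.70, 6.63 and 5.65 CPM untreated. It passed in no comparison, and 2 of its anti-IL-1b libraries were the only ones above 7 CPM. Oasl1 did not pass either, at 0.15 ± 0.17 with anti-IL-1b and -0.08 ± 0.17 with MCC950.

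Of the other antiviral effectors, 3 of 9 rose with anti-IL-1b, where 15.4% of all tested genes rose. With MCC950 5 of 9 rose, or 4 of 8 without Ifitm3, where 17.7% of all tested genes rose. Eif2ak2, which encodes the kinase PKR that halts translation on double-stranded RNA, rose by 0.44 ± 0.12 with anti-IL-1b and 0.52 ± 0.11 with MCC950 (adjusted p = 0.00269 and 3.43e-04, edgeR). Both Eif2ak2 calls were lost in limma-trend on log2(TPM + 1) and log2(TPM + 0.1), with an adjusted p of up to 0.299 with anti-IL-1b and 0.139 with MCC950. Adar, the enzyme that edits adenosine in double-stranded RNA, averaged 243 ± 3.60 CPM with anti-IL-1b, 244 ± 7.30 CPM with MCC950 and 213 ± 3.66 CPM untreated (SD, n = 3 each). It rose by 0.19 ± 0.04 with each agent (adjusted p = 4.15e-05 and 2.67e-05, edgeR). Samd9l, a translation-repressing antiviral factor, rose by 0.18 ± 0.04 with anti-IL-1b and 0.16 ± 0.04 with MCC950. Ifitm3, which blocks fusion of viruses in endosomes, stood at 0.451 to 1.31 CPM with anti-IL-1b, 0.467 to 1.21 CPM with MCC950 and 0.122 to 0.495 CPM untreated, so that its groups overlapped. Because every untreated library was under the filter level of 0.577 CPM, Ifitm3 was tested only through the treated groups, and its call with MCC950 (1.73 ± 0.68, adjusted p = 0.0446, edgeR) was lost without untreated replicate 1 or 3, without any 1 anti-IL-1b library, or without MCC950 replicate 2 or 3. Mx1, Rsad2, Cmpk2 and Isg20 passed with neither agent, with log2 values from -0.42 to 0.38.

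Of the ISG15 system, in which the ubiquitin-like ISG15 is attached to proteins and removed by USP18, Isg15 and Usp18 passed with MCC950 but not with anti-IL-1b, and Herc6 with anti-IL-1b but not with MCC950. Isg15 had 7.91, 8.06 and 5.91 CPM with anti-IL-1b, 13.4, 11.6 and 16.4 CPM with MCC950, and 10.8, 8.86 and 8.06 CPM untreated. The MCC950 libraries stood above all others, while the anti-IL-1b and untreated groups met at 8.06 CPM. Isg15 rose by 0.58 ± 0.16 with MCC950 (adjusted p = 0.00425, edgeR), a call lost without MCC950 replicate 3 (adjusted p = 0.0647), and was at -0.33 ± 0.17 with anti-IL-1b (adjusted p = 0.132). Usp18 rose by 0.39 ± 0.11 with MCC950 and was at 0.11 ± 0.11 with anti-IL-1b. Herc6, the ligase that attaches ISG15 in mice, rose by 0.28 ± 0.07 with anti-IL-1b (adjusted p = 0.00136, edgeR) and was at 0.12 ± 0.07 with MCC950. For Usp18 and Herc6 the direct comparison of the agents did not pass (adjusted p = 0.0677 and 0.115, edgeR).

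Among the ubiquitin ligases of the list, Trim30a rose slightly with MCC950 (0.12 ± 0.04, adjusted p = 0.0245, edgeR), a call lost without untreated replicate 2 or 3 or MCC950 replicate 2. Trim25, which acts on RIG-I, did not pass. Dtx3l and its partner Parp9, which share a promoter region and overlap on opposite strands, did not pass either, nor did Parp14, a macrodomain ADP-ribosyltransferase. Parp14 had 241, 222 and 236 CPM with anti-IL-1b, 226, 252 and 240 CPM with MCC950, and 222, 223 and 231 CPM untreated. The 3 groups overlapped. Dtx3l had 156, 165 and 176 CPM with anti-IL-1b, 156, 159 and 163 CPM with MCC950, and 160, 150 and 152 CPM untreated, and its groups overlapped too. Parp9 had 86.9, 84.0 and 94.6 CPM with anti-IL-1b, 86.0, 85.4 and 84.7 CPM with MCC950, and 79.5, 82.1 and 85.5 CPM untreated. All 3 were measured at over 40 TPM in each group, and their log2 values ran from 0.05 to 0.11, with standard errors of 0.04 to 0.06.

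Lgals3bp, Ifi27l2a, Rtp4 and Slfn1 rose with each agent. Lgals3bp, a secreted glycoprotein that binds galectins, had 94.5, 93.2 and 84.1 CPM with anti-IL-1b, 92.4, 88.9 and 92.1 CPM with MCC950, and 63.3, 61.9 and 61.9 CPM untreated. The treated libraries all lay above 84 CPM and the untreated ones below 64 CPM. It rose 1.45-fold with anti-IL-1b (log2 0.54 ± 0.06, adjusted p = 4.27e-10, edgeR) and 1.46-fold with MCC950 (log2 0.55 ± 0.06, adjusted p = 2.26e-10), the smallest p of any member in both comparisons. Ifi27l2a, a small mitochondrial membrane protein, had 57.0, 57.3 and 49.5 CPM with anti-IL-1b, 52.6, 54.6 and 57.6 CPM with MCC950, and 32.9, 36.0 and 42.4 CPM untreated. It rose by 0.56 ± 0.08 with each agent (adjusted p = 5.38e-07 and 3.37e-07, edgeR), with no overlap of treated and untreated libraries. Rtp4, a chaperone of receptors that also acts against viruses, had 24.8, 26.8 and 27.3 CPM with anti-IL-1b, 28.1, 26.9 and 26.1 CPM with MCC950, and 17.6, 16.8 and 17.0 CPM untreated. Its fold was 1.54 with anti-IL-1b and 1.58 with MCC950 (log2 0.62 ± 0.10 and 0.66 ± 0.10, adjusted p = 3.17e-06 and 8.39e-07, edgeR). Ifi35, of the same group of induced genes, rose by 0.21 ± 0.07 with MCC950 (adjusted p = 0.0128, edgeR), a call lost without untreated replicate 1 or MCC950 replicate 3, and was at 0.07 ± 0.07 with anti-IL-1b. For Lgals3bp, Ifi27l2a, Rtp4 and Slfn1 the direct difference between the agents was between -0.04 and -0.01, with standard errors of 0.03 to 0.10.

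The 2 Schlafen members, which are linked to the growth and quiescence of T cells in mice, differed from each other. Slfn1 had 276, 279 and 289 CPM with anti-IL-1b, 279, 285 and 285 CPM with MCC950, and 239, 241 and 244 CPM untreated. It rose by 0.22 ± 0.03 with anti-IL-1b and 0.23 ± 0.03 with MCC950 on the log2 scale (adjusted p = 1.31e-06 and 5.34e-07, edgeR). Slfn2, whose loss is known to break T cell quiescence in mice, had 333, 334 and 336 CPM with anti-IL-1b, 357, 394 and 357 CPM with MCC950, and 357, 350 and 359 CPM untreated. The anti-IL-1b libraries lay below all others. Slfn2 fell by 0.09 ± 0.03 with anti-IL-1b (adjusted p = 0.0410, edgeR), but this call was kept in 4 of 21 other settings, and its sign turned under library totals (0.04) and TPM (0.07). Sp100 had 600, 605 and 636 CPM with anti-IL-1b, 576, 589 and 578 CPM with MCC950, and 617, 623 and 635 CPM untreated. It fell by 0.10 ± 0.03 with MCC950 (adjusted p = 0.00332, edgeR), again with the other sign or none under library totals (0.01) and TPM (0.00). Xaf1, a promoter of cell death, rose by 0.35 ± 0.10 with anti-IL-1b (adjusted p = 0.00655, edgeR), a call lost without anti-IL-1b replicate 2, and was at 0.17 ± 0.10 with MCC950.

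When the 2 agents were set directly against each other, 1 of the 42 members was higher with anti-IL-1b than with MCC950, 6 were lower and 35 did not pass. Of all tested genes, 6.13% were higher and 7.11% lower (13.2% in either direction). The median of the members was -0.01 and that of all tested genes 0.00 on the log2 scale. The 6 that were lower with anti-IL-1b were Ly6e, Isg15, Bst2, Ly6a, Slfn2 and Ifit3, and the one that was higher was Gbp7. All 3 anti-IL-1b libraries lay below all 3 MCC950 libraries for 8 members, where 15.4% of all genes did so. Isg15 differed by the most, at -0.91 ± 0.17 (adjusted p = 1.21e-04, edgeR), on means of 7.29 CPM with anti-IL-1b and 13.8 CPM with MCC950 (n = 3 each). It was the single member past a fold of 1.5 in this comparison.

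Bst2, or tetherin, holds budding viruses at the cell surface. It had 28.8, 24.4 and 24.5 CPM with anti-IL-1b, 37.2, 32.4 and 38.3 CPM with MCC950, and 26.6, 27.1 and 27.8 CPM untreated. The MCC950 libraries stood above all others and the other groups overlapped. Bst2 was lower with anti-IL-1b than with MCC950 by a log2 value of -0.47 ± 0.09 (adjusted p = 2.97e-04, edgeR) and rose by 0.40 ± 0.09 with MCC950 against untreated (adjusted p = 4.46e-04). Bst2 is also a marker of plasmacytoid dendritic cells, and the 8 other genes of that list summed to 21.7 to 26.8 CPM with anti-IL-1b, 22.7 to 26.5 CPM with MCC950 and 15.6 to 21.9 CPM untreated. Of the 6 listed genes that were tested, Bst2 included, 3 rose with each agent, where 15.4% and 17.7% of all genes rose. The largest changes were those of Spib, at 1.97 with anti-IL-1b and 3.01 with MCC950 on the log2 scale. The median of the 6 was only 0.31 with anti-IL-1b and 0.37 with MCC950. Siglech, which defines those cells, averaged 0.170 CPM with anti-IL-1b, 0 CPM with MCC950 and 0.0330 CPM untreated, and Klk1 had no count in any library. The part of these cells in the Bst2 values was not tested.

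Both Ly6 surface proteins were highest with MCC950. Ly6a, which encodes Sca-1, had 74.3, 68.7 and 72.2 CPM with anti-IL-1b, 82.4, 88.8 and 87.8 CPM with MCC950, and 63.3, 60.8 and 66.0 CPM untreated. No 2 groups overlapped. It rose by 0.18 ± 0.06 with anti-IL-1b and 0.45 ± 0.06 with MCC950 (adjusted p = 0.0165 and 5.56e-08, edgeR), and differed between the agents by -0.27 ± 0.06 (adjusted p = 0.00117), a call lost in both TPM fits (adjusted p of up to 0.0625). The anti-IL-1b call of Ly6a was lost without untreated replicate 2 or anti-IL-1b replicate 1 (adjusted p of up to 0.0877). Ly6e had 561, 572 and 541 CPM with anti-IL-1b, 641, 621 and 621 CPM with MCC950, and 553, 567 and 565 CPM untreated. The MCC950 libraries again stood above the rest, and Ly6e rose by 0.16 ± 0.03 with MCC950 (adjusted p = 1.98e-05, edgeR). With anti-IL-1b it was at -0.01 ± 0.03, a value that turned to 0.12 and passed under library totals. The direct difference was -0.17 ± 0.03 (adjusted p = 3.94e-05, edgeR).

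The remaining direct calls were those of Ifit3, Slfn2 and Gbp7, and all 3 were lost in both TPM fits, with an adjusted p of up to 0.0995 for Ifit3, 0.312 for Slfn2 and 0.205 for Gbp7. Ifit3 was lower with anti-IL-1b by -0.41 ± 0.12 (adjusted p = 0.0148, edgeR), a call also lost without anti-IL-1b replicate 3 or MCC950 replicate 1, and Slfn2 by -0.15 ± 0.03 (adjusted p = 0.00259), also lost without MCC950 replicate 2. Gbp7, a guanylate-binding protein of the family that attacks vacuoles of intracellular microbes, had 139, 138 and 151 CPM with anti-IL-1b, 123, 129 and 126 CPM with MCC950, and 129, 121 and 120 CPM untreated. Its anti-IL-1b libraries stood above all others. It rose by 0.21 ± 0.04 with anti-IL-1b (adjusted p = 3.06e-04, edgeR), was at 0.03 ± 0.04 with MCC950, and was higher with anti-IL-1b than with MCC950 by 0.18 ± 0.04 (adjusted p = 0.00443), a call also lost without anti-IL-1b replicate 3. Gbp2, of the same family, passed in no comparison.

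**Figure D3:**
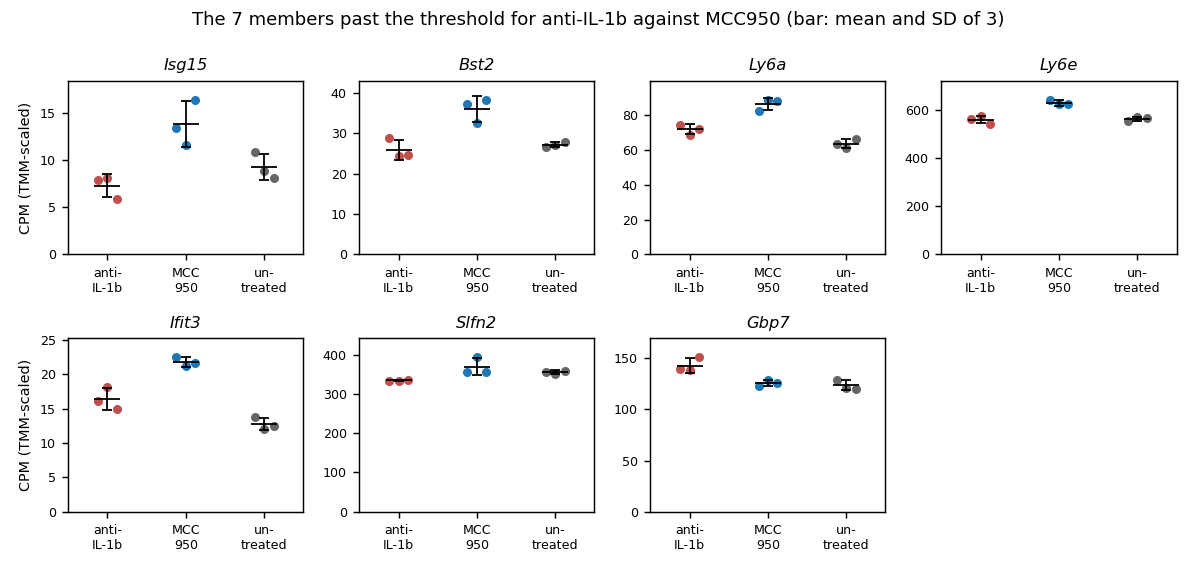
TMM-scaled CPM (vertical axes, from 0) of the 7 members that passed for anti-IL-1b against MCC950, in each library, for anti-IL-1b (red), MCC950 (blue) and untreated (grey); bars are the mean and SD of 3 libraries. Isg15, Bst2, Ly6a, Ly6e and Ifit3 are highest with MCC950, and Gbp7 is highest with anti-IL-1b.

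The rest of the interferon pathway, 125 genes outside the member list, was described for the same comparisons, and 95 of them were tested. With anti-IL-1b 32 rose and 20 fell, with MCC950 31 rose and 18 fell, and between the agents 10 were higher and 11 lower with anti-IL-1b. Over all tested genes, 15.4% rose and 18.5% fell with anti-IL-1b, 17.7% rose and 19.1% fell with MCC950, and 6.13% were higher and 7.11% lower with anti-IL-1b than with MCC950. The last count dropped to 12 calls in all without MCC950 replicate 1, where 4.23% of all genes were higher and 4.81% lower. Of the 20 interferon ligands none was tested, and 17, Ifnb1 and all listed Ifna genes but Ifnab among them, had no count in any library. At these depths no count allows up to 0.203 CPM in the smallest library and 0.140 CPM in the largest, for counting error only. Transcripts of those 17 were not detectable at this depth. Ifnab had 5 counts in all over the anti-IL-1b libraries and 0 in the MCC950 and untreated libraries. Ifnk had 10 counts with anti-IL-1b, 4 with MCC950 and 2 untreated, and Ifng had 14 with anti-IL-1b, 2 with MCC950 and 14 untreated.

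The receptors of type II interferon fell in both treated groups. Ifngr1 had 96.6, 92.1 and 98.0 CPM with anti-IL-1b, 95.9, 95.0 and 92.9 CPM with MCC950, and 181, 186 and 174 CPM untreated. The treated libraries all lay near 95 CPM, far below the untreated ones, and the log2 fold change was -0.91 ± 0.04 with anti-IL-1b and -0.93 ± 0.04 with MCC950 (adjusted p = 6.23e-20 and 2.84e-20, edgeR). Ifngr2 was at -0.71 ± 0.07 with anti-IL-1b and -0.68 ± 0.07 with MCC950. The receptor of type I interferon moved far less. Ifnar1 was at -0.04 ± 0.04 with anti-IL-1b and -0.11 ± 0.04 with MCC950, the second past the threshold (adjusted p = 0.0271, edgeR) but at 0.01 under library totals, and Ifnar2 passed with neither (-0.07 ± 0.07 with anti-IL-1b and 0.05 ± 0.07 with MCC950).

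Among the kinases and transcription factors the changes went in both directions, with 4 of 9 higher and 4 lower with anti-IL-1b, and 3 higher and 4 lower with MCC950, beside the shares of 15.4% and 18.5% of all genes with anti-IL-1b and 17.7% and 19.1% with MCC950. Irf1, a factor induced above all by type II interferon, had 261, 274 and 271 CPM with anti-IL-1b, 299, 307 and 297 CPM with MCC950, and 465, 478 and 476 CPM untreated. It fell by 0.82 ± 0.03 with anti-IL-1b and by 0.65 ± 0.03 with MCC950 on the log2 scale (adjusted p = 2.96e-23 and 4.41e-20, edgeR). Irf3, which carries the signal of nucleic acid sensors, rose by 0.35 ± 0.05 with anti-IL-1b and 0.56 ± 0.05 with MCC950, and Irf7, itself an interferon-stimulated gene that amplifies interferon production, by 0.30 ± 0.07 with anti-IL-1b and 0.45 ± 0.07 with MCC950 (adjusted p from 7.66e-11 to 0.00234, edgeR). Irf9 was at 0.12 ± 0.04 with anti-IL-1b, past the threshold (adjusted p = 0.0204, edgeR), and at 0.05 ± 0.04 with MCC950.

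Of the 7 inhibitors of the pathway, 5 fell with anti-IL-1b and 4 with MCC950, where 18.5% and 19.1% of all genes fell. Socs1, which blocks the JAK kinases, fell by 0.87 ± 0.10 with each agent. Socs3 fell by 0.53 ± 0.05 with anti-IL-1b and by 0.62 ± 0.05 with MCC950, and Irf2bp2, a corepressor, by 0.49 ± 0.04 with anti-IL-1b and by 0.41 ± 0.04 with MCC950 (adjusted p from 5.03e-12 to 4.29e-09 for these 2 genes, edgeR). Ptpn6, a phosphatase, and Irf2bp1, a corepressor, rose with MCC950, by 0.17 ± 0.03 and 0.34 ± 0.07. In the group upstream of interferon production, Ikbke, an IRF3-activating kinase, rose by 0.23 ± 0.03 with anti-IL-1b and 0.25 ± 0.03 with MCC950, and Myd88, the adaptor of Toll-like and IL-1 receptors, fell by 0.30 ± 0.06 with anti-IL-1b and was at -0.10 ± 0.06 with MCC950. Irf1, Socs3 and Ifngr1 moved in the direction of the heat-shock and immediate early genes given above, and the part of handling in their values was not tested.

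**Figure D4:**
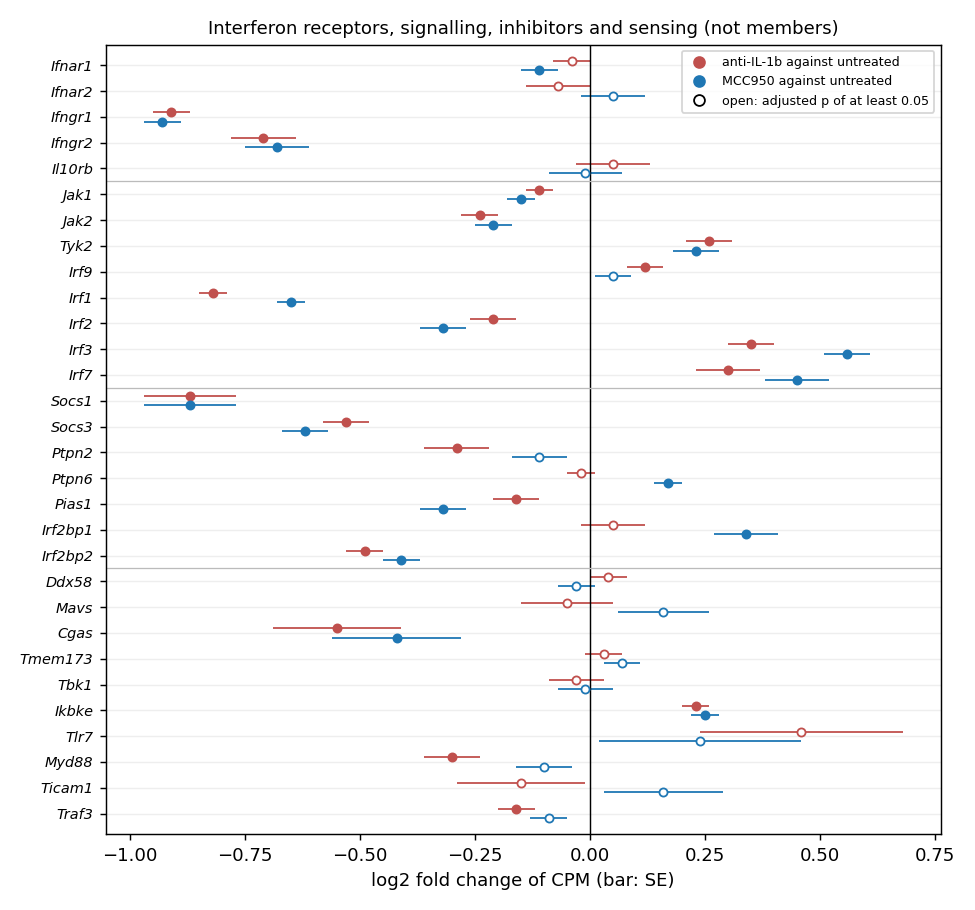
Log2 fold change of CPM (horizontal axis, bars are standard errors) of tested receptors, kinases and transcription factors, inhibitors and sensing genes outside the member list, for anti-IL-1b against untreated (red) and MCC950 against untreated (blue); filled points passed the threshold. Ifngr1, Ifngr2, Irf1, Socs1, Socs3 and Irf2bp2 lie far left of 0 and Irf3 and Irf7 right of it for both agents; among filled points, Jak1, Irf2 and Traf3 with anti-IL-1b and Ifnar1 with MCC950 lie left of 0 here and take the other sign under library totals or TPM.

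A further 71 interferon-stimulated genes stood outside the member list, and they too were chosen with earlier results of these data known. Of the 64 tested, 27 rose and 6 fell with anti-IL-1b, where 15.4% of all genes rose and 18.5% fell, and 25 rose and 6 fell with MCC950, where 17.7% rose and 19.1% fell, with medians of 0.12 and 0.14 on the log2 scale. Rnf213, a very large ubiquitin ligase, had 801, 794 and 833 CPM with anti-IL-1b, 774, 793 and 772 CPM with MCC950, and 615, 597 and 615 CPM untreated. It rose by 0.41 ± 0.03 with anti-IL-1b and 0.36 ± 0.03 with MCC950 (adjusted p = 1.42e-15 and 8.15e-14, edgeR), and its treated and untreated libraries did not overlap. Ifi213, of the family of DNA-binding proteins with a pyrin domain, had 254, 263 and 268 CPM with anti-IL-1b, 214, 226 and 230 CPM with MCC950, and 176, 175 and 161 CPM untreated. It rose by 0.62 ± 0.04 with anti-IL-1b and 0.39 ± 0.04 with MCC950, and was higher with anti-IL-1b than with MCC950 by 0.23 ± 0.04 (adjusted p = 4.50e-05, edgeR).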

How the data were processed

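The deposited tables hold, per gene and library, RSEM's expected counts, which are estimates of reads and are not normalized, and TPM values, which the authors' software relates to length and scales to one total per library, per the file headers. Reads were aligned with STAR and quantified with RSEM on mm10, per the submitters' processing notes. Their versions, and whether counting used strand, are not given in the sources used here. The library kit keeps strand, per the labels' protocols, but 15 members overlap a gene on the other strand, Parp9 and Dtx3l among them, and their values are uncertain to that extent, as are those of Oas, Ifit, Gbp, Slfn and Ifi200 relatives that may share reads.

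Gene IDs were matched to symbols in GENCODE M21 (GRCm38, the same build as mm10). Expected counts were rounded and tested with edgeR 4.0.16 in R 4.3.3 (quasi-likelihood test, robust, TMM, filterByExpr) in 1 fit of 3 group means over 9 libraries, with 3 comparisons and Benjamini-Hochberg adjustment over 13374 genes. The test is two-sided, and SE is that of the log2 fold change. CPM values are per TMM-scaled total. The biological coefficient of variation was 0.0707. Scripts were tested on simulated data. No 2 libraries of a group agreed within sampling noise: the mean chi-square per gene was 3.75 to 5.27.

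Alternatives were 3 other scalings, 2 other filters, DESeq2 1.42.0, limma-voom and limma-trend on log2(TPM + 1) and log2(TPM + 0.1) (limma 3.58.1), the replicate number as a block, fits of 6 libraries, a fit without the robust option, other thresholds, and leaving out each library.

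The members and the lists were chosen with earlier results of these data known. Members given library by library were, for each comparison, the 6 with the smallest p in the commoner direction and up to 4 in the other, and the 3 most abundant that passed in no comparison; values by library for Oas1a were added after they were seen. Pathway genes were the 2 with the smallest p of each list and Ifnar1, Ifnar2, Irf9, Irf7 and 1 more gene that is not reported here, and the others were added after their values were seen. Promoters were the 5 with the core and 2 without it with the smallest p, to which Isg15 and Ifit2 were added after their values were seen.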

Additional observations from a re-analysis of the deposited data

How the results depend on the processing

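Over 21 other fits, 14 of the 20 member calls for anti-IL-1b against untreated, 17 of the 25 for MCC950 against untreated and 3 of the 7 between the agents (Bst2, Isg15 and Ly6e) were kept in every one. Counts of member calls ran from 17 to 21, from 22 to 25 and from 5 to 8 when 1 library was left out, and those of the other pathway genes from 43 to 51, from 43 to 49 and from 12 to 22. In those fits 12.7% to 15.4% of all genes were higher and 15.5% to 17.8% lower with anti-IL-1b. With MCC950 14.5% to 17.6% were higher and 15.9% to 18.9% lower. Between the agents 4.23% to 5.87% were higher and 4.81% to 6.98% lower. A minimum fold of 1.5 left 2, 5 and 1 members and 9, 10 and 1 pathway genes, because it adds a condition. Between the agents, limma-trend on log2(TPM + 1) and on log2(TPM + 0.1) left 4 members each and 7 and 5 pathway genes, and a threshold of 0.10 gave 12 members. Of all genes, 2.77% were higher and 1.53% lower on log2(TPM + 1), and 2.71% and 1.53% on log2(TPM + 0.1). The shares of all genes past a fold of 1.5 or a threshold of 0.10 were not counted. Under library totals, log2(TPM + 1) and log2(TPM + 0.1) a number of values turned sign. Among them were Slfn2 with anti-IL-1b (0.04, 0.07 and 0.07), Sp100 with anti-IL-1b (0.10, 0.18 and 0.18), Sp100 with MCC950 (0.01, 0.00 and 0.00) and Ly6e with anti-IL-1b (0.12, 0.13 and 0.13). Bst2 (0.06, 0.07 and 0.08), Jak1 (0.01, 0.07 and 0.07) and Ifi47 (0.03, 0.06 and 0.07) did so with anti-IL-1b, as did others not given here. Ifnar1 with MCC950 turned under library totals alone (0.01). Sp100 and Ly6e with anti-IL-1b passed as higher in each of those settings. These settings shift the median of all genes upward, and no other cause was tested. The main fit did not pair libraries by replicate number. Deviations of same-numbered libraries correlated at -0.010 to 0.063, and those of differently numbered ones at -0.057 to 0.025. With the replicate block 19, 25 and 7 members passed, where 15.2%, 17.5% and 5.85% of all genes were higher and 18.3%, 18.8% and 6.89% lower. Standard errors of members under 10 TPM ran up to 0.70, above every change against untreated seen in members of at least 100 TPM.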

Other observations

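The cluster of interferon-inducible genes with pyrin and HIN domains on chromosome 1, chosen after its values were seen, held the largest fall among the interferon-stimulated genes examined. Ifi204, a DNA sensor of this family, had 0.175, 0.0645 and 0.131 CPM with anti-IL-1b, 0.292, 0 and 0.165 CPM with MCC950, and 9.08, 9.15 and 10.7 CPM untreated. All 6 treated libraries were thus below 0.3 CPM and all 3 untreated ones above 9 CPM (log2 -6.19 ± 0.44 with anti-IL-1b and -5.96 ± 0.42 with MCC950). Every treated library was under the filter level of 0.577 CPM, so Ifi204 was tested only through the untreated group. Its p-values are therefore not given, and its log2 values rest on very few treated counts. The neighbours of Ifi204 did not share this fall. Ifi208 fell by 0.47 ± 0.04 with anti-IL-1b and by 0.32 ± 0.04 with MCC950, Ifi209 rose by 0.27 ± 0.04 with anti-IL-1b and 0.15 ± 0.04 with MCC950, and Ifi203 passed against untreated cells with neither agent (0.07 ± 0.03 with anti-IL-1b and -0.05 ± 0.03 with MCC950). The family is made of close relatives, among which RSEM may divide reads, so the split between them is uncertain, and no cause was tested.

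Outside this cluster, Oas1b had the largest rise of the listed genes above 10 CPM, with 27.1, 22.6 and 25.3 CPM with anti-IL-1b, 28.1, 28.3 and 28.7 CPM with MCC950, and 12.3, 12.4 and 14.1 CPM untreated (log2 0.96 ± 0.11 with anti-IL-1b and 1.14 ± 0.11 with MCC950, adjusted p = 2.41e-09 and 2.22e-11, edgeR). Ms4a4b, a membrane protein of naive T cells, rose by 0.46 ± 0.04 with anti-IL-1b and 0.39 ± 0.04 with MCC950, and Helz2, a helicase, by 0.43 ± 0.04 with anti-IL-1b and 0.42 ± 0.04 with MCC950. Iigp1, an immunity-related GTPase, averaged 41.3 CPM with anti-IL-1b, 27.2 CPM with MCC950 and 36.8 CPM untreated. It fell by 0.43 ± 0.10 with MCC950 and was higher with anti-IL-1b than with MCC950 by 0.60 ± 0.10.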
